A study of Ovis aries with 115 samples.

Results

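A set of 150 genes with higher mean expression at a natural than at a synchronised oestrus in the cervix of all 4 ewe breeds is described here, out of 15274 genes that passed a filter on low counts and 27054 gene identifiers in the count tables. For each gene the level was taken as log2(CPM + 0.5), where CPM is the gene's count divided by the total count of the library and scaled to a common total, the mean of the synchronised follicular ewes was subtracted from the mean of the natural follicular ewes within each breed, and the smallest of the 4 breed differences was the score. The 150 genes of highest score form the set. The genes were thus chosen by the measured natural minus synchronised differences, and natural against synchronised values of the set are given below as a description without a test. For the set, tests are given only for the luteal ewes, which the choice did not use, and for breed differences among them. The sources used here gave gene symbols for 1352 identifiers, and 11 of the 150 genes carried one: S100G, CELSR2, PODXL2, PLPPR1, PLA1A, MDK, MCOLN3, KDM8, PLA2G2C, OVOL2 and FGB. The symbols came from the study's lists of genes that differed between Suffolk and another breed at the synchronised oestrus. Named genes, and the lists of genes for processes and cell types below, are therefore limited to such genes. The other 139 are counted and, where named, given by their Ensembl identifier.

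The study asked how cervical gene expression differs between ewe breeds that differ in pregnancy rate after cervical insemination with frozen-thawed semen, and how it depends on the cycle. Poly(A) RNA from post-mortem cervix was sequenced with a stranded kit, 1 library per ewe. Suffolk and Belclare ewes were kept in Ireland, and Fur and Norwegian White Sheep (NWS) in Norway, so a contrast of a Norwegian with an Irish breed cannot be told apart from one of country, while Belclare against Suffolk is a contrast within Ireland. Of Belclare there were 10 synchronised (labelled induced) follicular, 10 natural follicular and 10 luteal ewes, of Fur 8, 10 and 9, of NWS 10, 10 and 8, and of Suffolk 11, 8 and 10; the luteal ewes were also labelled induced, and the ewes of the groups were different animals. Synchronised ewes carried an intravaginal sponge with 20 mg of flugestone acetate, a progestagen, for 14 days, then received 400 IU of equine chorionic gonadotrophin, and follicular tissue was taken 54 to 56 h after sponge removal. The methods give multiparous ewes of 4 to 5 years and mid-cervix sections that avoided the folds, but describe only the synchronised follicular ewes. Whether the natural and luteal libraries were prepared together with these is not given in the sources used here, so cycle and preparation cannot be told apart. Of 16 epithelial and 16 mucus and fluid secretion identifiers, 0 were at 0 throughout any of the 3 groups. All of these had passed the filter on low counts, which left little room for such a result in the follicular groups.

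The cervix is lined by a secretory epithelium over collagen-rich stroma and smooth muscle. At oestrus oestrogen from the dominant follicle drives its mucus secretion and opens the passage to sperm, and in the luteal phase progesterone from the corpus luteum reduces the fluid and closes it. A progestagen sponge imitates the luteal phase, and its removal, with a gonadotrophin, sets the time of the follicular phase that follows.

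Total counts ran from 12238996 to 31261671 per library. A few libraries stood apart or went against their labels. NWS natural replicates 4 and 10 had 36.3 and 31.5 CPM of mitochondrial COX-1, inside the range of the Fur ewes (26.1 to 50.7 CPM) and below the other 26 NWS libraries (764 to 2442 CPM). Fur synchronised follicular replicate 3 had 72.0 CPM of the oestrogen-induced gene GREB1, against 241 to 594 CPM in the other 7 ewes of its group and a median of 36.1 CPM in luteal ewes. Suffolk luteal replicate 7 had the highest GREB1 of the 37 luteal ewes (261 CPM). Luteal replicates 7 of Belclare and Suffolk had the lowest mean level of the set in their groups, and without Belclare synchronised follicular replicate 2 the rule kept 97 of the 150 genes. The set means and the luteal counts, fold changes and correlations below are given with all libraries, and their values without these libraries stand beside them or at the end of the luteal results. Low GREB1 was not particular to the Fur ewe. The lowest of the 39 synchronised follicular ewes had 40.2 CPM, and NWS natural replicate 3 had 60.7 CPM. NWS natural replicate 3 is not among the 6 libraries left out below.

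The natural minus synchronised difference was small beside the spread between ewes. The score ran from 0.135 to 0.418 on the log2 scale with a median of 0.172, and the mean of the 4 breed differences from 0.15 to 0.80 with a median of 0.34. The median SD within a group was 0.63. The difference exceeded 1 pooled SD in no breed for 89 of the 150 genes, in 1 breed for 53 and in 2 breeds for 8, and in 3 or more for 0. Natural and synchronised ewes separated without overlap for 1 gene of the set, ENSOARG00000000964 in Fur, where 0.249% of all genes did so; for Belclare and Suffolk that share was 0.0% and for NWS 0.00655%. Just inside the limit of the set stood ENSOARG00000006930 (score 0.1356), FGB (0.1355) and ENSOARG00000018913 (0.135), and just outside it ENSOARG00000011701 (0.1347), ENSOARG00000000143 (0.1345) and ENSOARG00000001402 (0.1339). Natural ewes were higher in all 4 breeds for 1557 of the 15274 genes and lower in all 4 for 781.

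Among all genes, few passed a test of natural against synchronised ewes. With edgeR over the mean of the 4 breeds, 1 gene was higher (0.00655% of those tested) and 1 lower (0.00655%) at an adjusted p below 0.05 and a fold change above 1.5. They were ENSOARG00000018032 (log2 fold change 2.53, SE 0.44, adjusted p = 0.00262) and ENSOARG00000009627 (-0.91, SE 0.19, adjusted p = 0.0254), and neither belongs to the set. The 2 called genes became 24 without Belclare synchronised follicular replicate 2 and 9 without Fur synchronised follicular replicate 3. An unadjusted p below 0.05 was reached by 2456 genes, and DESeq2 called 26.

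Averaged over the 150 genes, the level of a ewe overlapped between the cycles in every breed. In Belclare the mean log2(CPM + 0.5) of the set ran from 2.05 through a median of 2.51 to 2.99 in synchronised and from 2.56 through 2.72 to 3.29 in natural follicular ewes. In Fur it ran from 2.55 through 2.85 to 3.42 in synchronised and from 2.93 through 3.39 to 3.73 in natural ewes. Of the natural ewes, 3 of 10 Belclare and 5 of 10 Fur ewes lay above every synchronised follicular ewe of their breed. In NWS the level ran from 2.59 through 2.75 to 3.34 in synchronised and from 2.70 through 3.16 to 3.72 in natural ewes, and in Suffolk from 1.90 through 2.41 to 3.17 and from 2.42 through 2.74 to 3.71. There 3 of 10 NWS and 1 of 8 Suffolk natural ewes stood above every synchronised ewe. Without NWS natural replicates 4 and 10 the NWS difference in this mean was 0.34 in place of 0.36, without Fur synchronised follicular replicate 3 the Fur difference was 0.53 in place of 0.45, and without Belclare synchronised follicular replicate 2 the Belclare difference was 0.33 in place of 0.29.

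**Figure D1:**
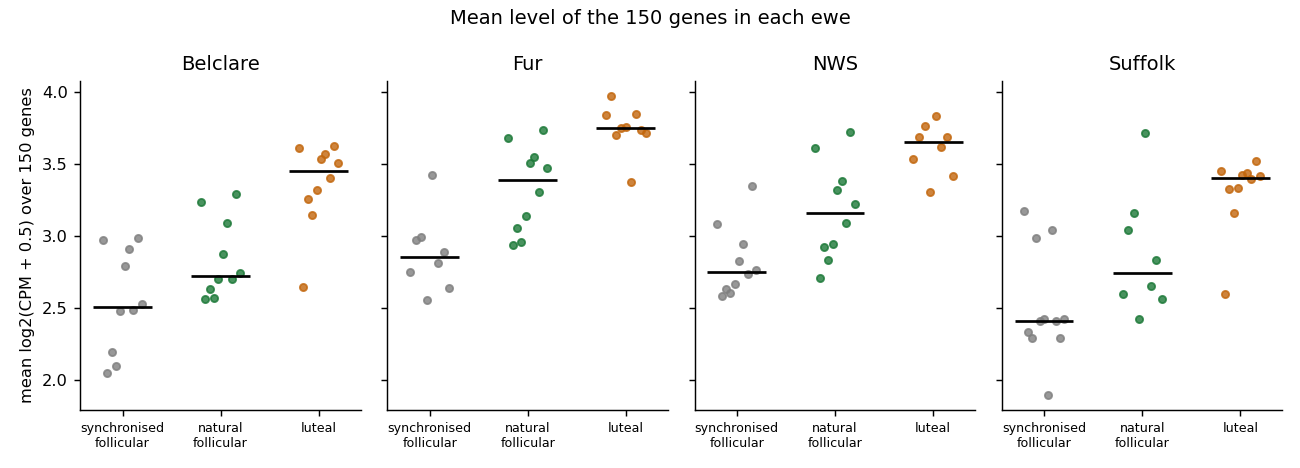
Mean log2(CPM + 0.5) over the 150 genes in each ewe (points), by breed and group, with the group median (bar). The synchronised and natural follicular ewes overlap in every breed, and luteal medians run from 3.40 in Suffolk to 3.75 in Fur, above both follicular medians of each breed. The natural minus synchronised gap was used to choose the genes.

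S100G, a small cytosolic calcium-binding protein of absorptive and uterine epithelium, ranked 23 in the set. In Suffolk it ran from 109 through a median of 247 to 557 CPM in synchronised and from 135 through 304 to 756 CPM in natural ewes. In Fur the values were 35.0, 144 and 313 CPM in synchronised and 135, 194 and 421 CPM in natural ewes. The groups overlapped in both breeds, and the S100G differences of the 4 breeds ran from 0.26 in Suffolk to 0.81 in Fur on the log2 scale, with a median within-group SD of 0.84.

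MDK, the heparin-binding growth factor midkine, had a median of 34.1 CPM over the 39 synchronised and 51.6 CPM over the 38 natural follicular ewes, with ranges of 15.5 to 176 and 13.6 to 347 CPM. PLA1A, a phospholipase specific for phosphatidylserine, had medians of 2.28 CPM in synchronised and 3.11 CPM in natural ewes and highest values of 115 and 429 CPM. The top values came from single ewes, NWS synchronised replicate 9 for the synchronised group and a Suffolk ewe for the natural group. MCOLN3, a cation channel of endosomes and lysosomes, had medians of 2.44 and 3.64 CPM in synchronised and natural ewes, and natural ewes reached 73.4 CPM where synchronised ewes reached 13.4 CPM. Medians over all ewes of a group, here and in all later paragraphs, pool the breeds, whose numbers differed between the groups.

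For the other named genes the medians lay close together beside the range of the ewes. CELSR2, an atypical cadherin of planar cell polarity, had medians of 31.7 CPM in synchronised and 39.6 CPM in natural ewes. OVOL2, a zinc finger factor that maintains epithelial identity, had 11.7 and 12.3 CPM, and the histone demethylase-like KDM8 had 13.4 and 15.7 CPM. For PODXL2, a sialomucin of the podocalyxin family, the medians were 3.40 and 4.27 CPM, and for FGB, the fibrinogen beta chain, 2.76 and 3.87 CPM. PLA2G2C, a secreted phospholipase A2, had 2.71 and 4.63 CPM, and PLPPR1, a phospholipid phosphatase-related membrane protein, 2.26 and 3.04 CPM. Synchronised and natural ewes overlapped for each of the 11 named genes in every breed.

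Among the unnamed genes, the highest score belonged to ENSOARG00000013432, with breed medians of 4.53 to 18.5 CPM in synchronised and 7.01 to 30.3 CPM in natural ewes. ENSOARG00000008975, ranked 9, had medians of 197 CPM in Belclare, 2222 in Fur, 2127 in NWS and 218 in Suffolk at the synchronised oestrus and 375, 2823, 2391 and 294 CPM at the natural oestrus. Both Norwegian breeds thus lay far above both Irish breeds in either cycle, with a smaller step between the cycles. The set as a whole drew few counts, with a median level (log2(CPM + 0.5), not divided by gene length) of 2.41 over the follicular ewes against 4.38 over all 15274 genes.

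The 12 lists of genes for other processes and cell types were tested gene by gene and not as sets. Since the test called only 1 gene higher and 1 lower among all 15274, it could show little for the lists. Of 163 identifiers in 12 lists, 0 passed edgeR's test of natural against synchronised ewes, and DESeq2 called 1. An unadjusted p below 0.05 was reached by 21 of them, beside 2456 of all 15274 genes. The smooth muscle list stood out by size: its 6 identifiers had log2 fold changes of 0.38 to 0.83 with a median of 0.54, none past the test, and their summed level ran from 30.1 through a median of 723 to 11420 CPM in synchronised and from 72.0 through 3340 to 15800 CPM in natural ewes. None of the 6 was at 0 throughout a group, and none belongs to the set. Median log2 fold changes of natural against synchronised ewes were 0.04 for 18 sex steroid signalling genes, -0.01 for 16 mucus and fluid secretion genes, 0.16 for 22 interferon response identifiers, 0.04 for 21 lysosomal genes and -0.04 for 8 proliferation genes. For the other cell type lists they were 0.02 for epithelium (16 identifiers), -0.14 for keratinised epithelium (3), -0.11 for lymphoid cells (15), -0.13 for neutrophils and other myeloid cells (13), -0.04 for stroma (19) and 0.07 for endothelium (6). S100G is the member of the set on the sex steroid list, and OVOL2 the member on the epithelial list. Both were among the 163 identifiers tested, although the choice of the set had used the same difference. In bulk tissue fewer cells of a type and less RNA per cell cannot be told apart, and the part of smooth muscle content in the differences of the 150 genes was not tested.

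Among follicular ewes, whose values chose the genes, a higher mean level of the set went with less GREB1, and among luteal ewes, which the choice did not use, the relation was weak. With both measures centred within breed, Pearson's r between the mean of the set and log2 GREB1 was -0.53 over the 38 natural ewes (Spearman's rho -0.61; r without the 2 ewes farthest in GREB1 -0.59) and -0.67 over the 39 synchronised follicular ewes (rho -0.61; -0.60). It was -0.25 over the 37 luteal ewes (rho -0.15; -0.10). Without the 6 libraries named above r was -0.53, -0.60 and -0.27 over 36, 37 and 35 ewes. Each point is 1 library, and both measures share its depth. With the summed smooth muscle level r was 0.12 in natural, 0.28 in synchronised follicular and 0.50 in luteal ewes. GREB1 itself had medians of 447 CPM in synchronised and 392 CPM in natural follicular ewes, with a log2 fold change of -0.19 (edgeR, adjusted p = 0.577).

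The genes of the set were more often high than low in luteal ewes. This was tested against the midpoint of the natural and synchronised follicular means of each breed, averaged over the 4 breeds. That contrast weighs both cycles alike, so the difference used to choose the genes does not enter it as such, although groups of 8 to 11 ewes make this approximate. With edgeR, 67 of the 150 genes were higher in luteal ewes (44.7%) where 11% of all genes were, and 9 were lower (6.0%) where 11.4% of all genes were. The median log2 fold change was 0.49 for the set and 0.00 for all genes tested, and 117 of the 150 genes lay above 0. Without a fold change threshold the counts were 98 higher and 11 lower, beside 35.4% and 35.1% of all genes. On the raw CPM scale the median of all genes was itself 0.15 higher in luteal ewes, and that of the set 0.61. No comparison with genes of like level or spread was made.

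The same held within each breed. Higher in luteal ewes were 60 genes of the set in Belclare (11.5% of all genes were), 70 in Fur (10.3%), 56 in NWS (9.76%) and 55 in Suffolk (9.28%). Lower were 7 in Belclare (12.7%), 3 in Fur (10.8%), 6 in NWS (9.78%) and 6 in Suffolk (8.9%). Leaving out NWS natural replicates 4 and 10 gave 68 higher and 9 lower over the 4 breeds, leaving out Fur synchronised follicular replicate 3 gave 68 and 9, leaving out Belclare synchronised follicular replicate 2 gave 70 and 9, and leaving out Belclare and Suffolk luteal replicates 7 gave 69 and 9. Without all 6 libraries together the counts were 73 higher and 9 lower over the 4 breeds, 68 and 5 in Belclare, 74 and 4 in Fur, 53 and 8 in NWS and 58 and 6 in Suffolk.

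**Figure D2:**
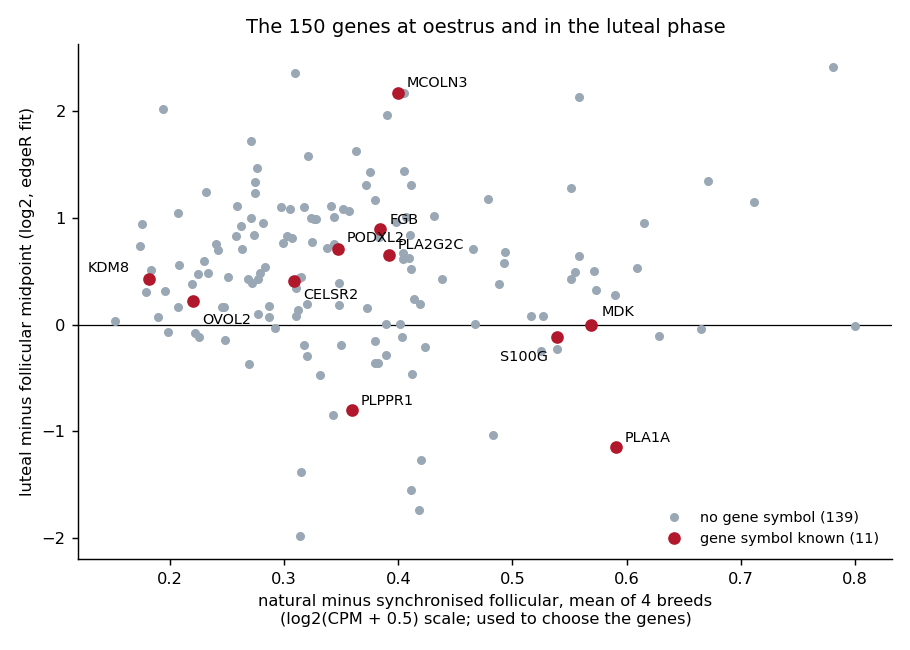
Each point is 1 of the 150 genes, with its natural minus synchronised difference averaged over the breeds (x axis, log2; used to choose the genes) and its luteal minus follicular midpoint log2 fold change (y axis, edgeR). Most points lie above 0 on the y axis (117 of 150), MCOLN3 is the highest of the named genes and PLA1A the lowest.

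In luteal ewes the mean of the set moved beyond the natural ewes in the direction away from the synchronised ewes. It ran from 2.64 through a median of 3.45 to 3.63 in Belclare, from 3.37 through 3.75 to 3.97 in Fur, from 3.30 through 3.65 to 3.83 in NWS and from 2.596 through 3.40 to 3.52 in Suffolk. Still, 7 of 10 Belclare, 5 of 10 Fur, 4 of 10 NWS and 5 of 8 Suffolk natural ewes reached at least the lowest luteal ewe of their breed. The lowest luteal values of Belclare and Suffolk were both replicate 7, and without them the luteal minus natural difference was 0.60 in place of 0.52 in Belclare and 0.51 in place of 0.43 in Suffolk. Gene by gene, the luteal mean was at or above the natural mean in all 4 breeds for 89 of the 150 genes (59.3%, against 44.2% of all genes). It was at or below the synchronised follicular mean in all 4 breeds for 3 (2.0%, against 20.7% of all genes), PLPPR1 among them. It lay between the 2 follicular means in all 4 breeds for 1 (ENSOARG00000013432), and 57 were mixed. These classes use raw CPM, and the choice of the genes had raised their natural means and lowered their synchronised means. The shares of all genes are thus not a like comparison.

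MCOLN3 had the largest luteal log2 fold change of the 11 named genes. In Belclare it ran from 1.75 through a median of 2.62 to 5.74 CPM in synchronised follicular, from 0.389 through 3.64 to 13.3 CPM in natural and from 3.84 through 61.6 to 145 CPM in luteal ewes. In Suffolk the luteal ewes ran from 0.680 through 3.98 to 44.1 CPM. Belclare luteal ewes overlapped their follicular ewes only at the low end, and Suffolk luteal ewes overlapped Suffolk natural ewes, which reached 73.4 CPM. MCOLN3 was 4.50-fold higher in luteal ewes over the 4 breeds (log2 2.17, SE 0.26, adjusted p = 2.75e-12), 13.5-fold in Belclare (adjusted p = 2.69e-09), 5.91-fold in Fur (adjusted p = 6.96e-05), 3.38-fold in NWS (adjusted p = 0.00596) and 1.52-fold in Suffolk (adjusted p = 0.36). The luteal step differed between Belclare and Suffolk (log2 3.16, SE 0.76, adjusted p = 0.0158).

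3 other named genes were called higher in luteal ewes. PODXL2 had a luteal median of 7.93 CPM (log2 fold change 0.71, SE 0.14, adjusted p = 9.15e-06), FGB 6.47 CPM (0.89, SE 0.20, adjusted p = 6.96e-05) and PLA2G2C 7.14 CPM (0.65, SE 0.15, adjusted p = 9.93e-05). KDM8 (log2 0.42, SE 0.09, adjusted p = 1.26e-05), CELSR2 (0.40, SE 0.12, adjusted p = 0.00151) and OVOL2 (0.22, SE 0.09, adjusted p = 0.026) passed the adjusted p but not the 1.5-fold threshold. For PLA2G2C the step was 2.51-fold in Fur and 2.51-fold in NWS, with log2 values of -0.02 in both Belclare and Suffolk, and its differences between Fur or NWS and Suffolk did not pass the test (adjusted p = 0.149 and 0.32).

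PLPPR1 and PLA1A were lower in luteal ewes. PLPPR1 had a luteal median of 1.71 CPM and a log2 fold change of -0.80 (SE 0.18, adjusted p = 5.85e-05), and PLA1A one of -1.15 (SE 0.33, adjusted p = 0.00119). The luteal median of PLA1A was 2.82 CPM, between the medians of synchronised and natural ewes, whose highest values were 115 and 429 CPM, and no fit without those high ewes was made. By breed the PLA1A log2 fold change was 0.33 in Belclare, -1.10 in Fur, -2.03 in NWS and -1.80 in Suffolk, called lower only in NWS and Suffolk. For PLPPR1 these values were -1.26, -0.71, -0.89 and -0.35, called lower only in Belclare. S100G (log2 -0.12, SE 0.17, adjusted p = 0.53) and MDK (-0.01, SE 0.16, adjusted p = 0.977) did not pass. Within Suffolk, S100G was 2.31-fold lower in luteal ewes (adjusted p = 0.00269), with a luteal median of 144 CPM, while in Fur the log2 fold change was 0.49 (adjusted p = 0.232). The difference between these breeds missed the threshold (log2 1.69, SE 0.47, adjusted p = 0.0745).

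Of the unnamed genes, those of smallest p were high in every breed. ENSOARG00000005711 had luteal medians of 76.0, 133, 109 and 64.5 CPM in Belclare, Fur, NWS and Suffolk, against synchronised follicular medians of 8.40, 17.7, 16.8 and 7.33 CPM, and was 5.11-fold higher in luteal ewes (log2 2.35, SE 0.16, adjusted p = 3.2e-25). ENSOARG00000014874 was 5.31-fold higher (log2 2.41, SE 0.17, adjusted p = 1.33e-24), and ENSOARG00000018524 1.66-fold higher (0.73, SE 0.05, adjusted p = 1.05e-24). Fur synchronised follicular replicate 3, a ewe with low GREB1, had the highest synchronised value of all 3: 199.8 CPM of ENSOARG00000005711, above the highest luteal Fur ewe (188.6 CPM), 131.5 CPM of ENSOARG00000014874, within the luteal range of 48.1 to 140.7 CPM, and 127.4 CPM of ENSOARG00000018524, below the lowest luteal Fur ewe (138 CPM). The smallest p among the lower genes belonged to ENSOARG00000000749 (3.94-fold lower, adjusted p = 7.07e-18), ENSOARG00000017606 (2.05-fold lower, adjusted p = 5.9e-06) and ENSOARG00000015322 (2.92-fold lower, adjusted p = 6.48e-06), and the last had luteal medians of 0.141 to 0.27 CPM.

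Without the 6 libraries that stood apart, the named genes kept their calls over the 4 breeds, with MCOLN3 at 2.21 (SE 0.27), PLA2G2C at 0.83 (SE 0.14) and PLA1A at -1.22 (SE 0.34) on the log2 scale. The difference of the luteal step in MCOLN3 between Belclare and Suffolk was 3.17 (SE 0.79, adjusted p = 0.0137). That of PLA2G2C between Fur and Suffolk then passed the test (1.69, SE 0.40, adjusted p = 0.0243). Suffolk natural replicate 4, with 73.4 CPM of MCOLN3 where others of its group reached 7.75 CPM, was not among the 6. No fit without that ewe was made.

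Some other measures moved with the luteal state. Beside the counts here and in the next paragraph, 11% of all genes were called higher and 11.4% lower in luteal ewes. The 50 most abundant genes of a library took a median of 15.2% of the counts in luteal ewes (12.7% to 30.7%) against 19.5% in both natural (16.8% to 26.7%) and synchronised follicular ewes (16.6% to 28.2%). Of the stromal list, 13 of 19 identifiers were lower in luteal ewes and 0 higher, and its summed level ran from 1190 through a median of 2953 to 5585 CPM in luteal ewes, from 2646 through 4111 to 7390 CPM in natural and from 2355 through 4153 to 10010 CPM in synchronised follicular ewes. Of 16 epithelial identifiers 1 was higher and 0 were lower, with summed medians of 2416 CPM in luteal, 2238 CPM in natural and 2528 CPM in synchronised follicular ewes. Their part in the luteal levels of the 150 genes was not tested.

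Genes of hormone response and secretion were more often lower than higher in luteal ewes. Of the 18 sex steroid genes 8 were lower in luteal ewes and 1, the oestrogen receptor ESR2, higher (log2 1.08, SE 0.24). GREB1 was lower by a log2 fold change of -3.29 (SE 0.20), the oxytocin receptor OXTR by -3.18 (SE 0.48) and HSD11B1, which interconverts cortisone and cortisol, by -2.61 (SE 0.18). Lower and higher identifiers were 9 and 2 of 16 for mucus and fluid secretion, 10 and 0 of 21 for the lysosome, 4 and 0 of 8 for proliferation and 1 and 4 of 22 for the interferon response. For the remaining cell type lists they were 3 and 1 of 6 for smooth muscle, 2 and 5 of 15 for lymphoid cells, 4 and 2 of 13 for neutrophils and other myeloid cells, 1 and 1 of 3 for keratinised epithelium and 0 and 1 of 6 for endothelium. Symbols with several identifiers, such as THBS2 and CXCR2, count once per identifier. Beside the shares of all genes (11% higher, 11.4% lower), counts of 1 or 2 in such short lists are not read as a shift.

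Among the 37 luteal ewes the genes of the set differed by breed, mostly with higher levels in the Norwegian breeds than in Suffolk. In Fur 40 genes were higher (26.7%, against 6.93% of all genes) and 11 lower (7.33%, against 7.62%). In NWS 23 were higher (15.3%, against 2.77%) and 3 lower (2.0%, against 1.8%). In Belclare 7 were higher (4.67%, against 2.06%) and 4 lower (2.67%, against 2.99%), and the 7 became 4 with the replicate number as a block and 2 with Belclare and Suffolk fitted alone. Median log2 fold changes of the set were 0.31, 0.07 and 0.10 in Fur, NWS and Belclare, beside -0.03, -0.01 and -0.01 over all genes. Leaving out Belclare and Suffolk luteal replicates 7 gave 37 higher and 13 lower in Fur, 19 and 5 in NWS and 9 and 8 in Belclare. The 3 comparisons share the 10 Suffolk luteal ewes.

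**Figure D3:**
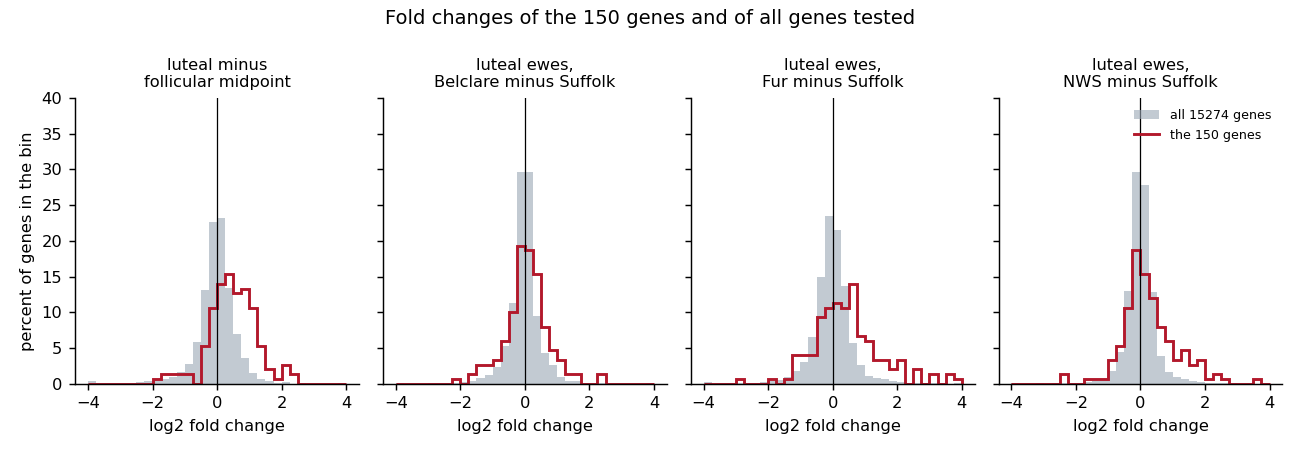
Percent of genes by log2 fold change (edgeR; bins of 0.25, values beyond 4 placed in the end bins) for the 150 genes (red line) and all 15274 genes (grey), in the luteal minus follicular midpoint comparison and in 3 breed comparisons of luteal ewes. The red line lies to the right of the grey in the luteal comparison (medians 0.49 and 0.00) and has a long right tail in Fur and NWS.

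Several unnamed genes carried the Norwegian difference. ENSOARG00000018795 had luteal medians of 11.2 CPM in Fur (2.01 to 33.8), 9.10 CPM in NWS (2.80 to 22.4), 1.30 CPM in Belclare (0.0656 to 6.61) and 1.23 CPM in Suffolk (0.655 to 2.64), and was higher by a log2 fold change of 3.11 in Fur (SE 0.52, adjusted p = 4.2e-05) and 2.69 in NWS (SE 0.52, adjusted p = 0.00108). Every NWS luteal ewe thus stood above every Suffolk luteal ewe for this gene, as for 4 genes of the set in all (0.419% of all genes did so). In Fur 2 genes of the set (0.903%) and in Belclare 0 (0.00655%) separated from Suffolk in this way. ENSOARG00000011587 was higher by 1.49 in Fur (SE 0.22, adjusted p = 8.66e-06) and 1.25 in NWS (SE 0.22, adjusted p = 0.000596), and ENSOARG00000019142 by 2.15 (SE 0.28, adjusted p = 2.16e-06) and 1.51 (SE 0.28, adjusted p = 0.00086). Of ENSOARG00000011587, every Fur and NWS luteal ewe (lowest 8.59 and 8.15 CPM) was above every Suffolk luteal ewe (highest 6.97 CPM).

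Of the 11 named genes 6 were lower and 2 higher in Fur than in Suffolk, where 7.62% of all genes were lower and 6.93% higher. A gene had its symbol only because the study listed it as differing between Suffolk and another breed at the synchronised oestrus. These counts are thus not read as a result about the set. PLA1A had luteal medians of 1.38 CPM in Fur, 1.10 CPM in NWS, 4.97 CPM in Belclare and 8.67 CPM in Suffolk, and was lower than in Suffolk by a log2 fold change of -2.76 in Fur (SE 0.46, adjusted p = 4.14e-05) and -2.33 in NWS (SE 0.47, adjusted p = 0.00151). OVOL2 (-1.05, adjusted p = 0.000741), PODXL2 (-0.88, adjusted p = 0.00452), CELSR2 (-0.88, adjusted p = 0.00808) and KDM8 (-0.86, adjusted p = 0.000162) were lower in Fur. Their luteal medians were 9.31, 5.63, 35.1 and 16.2 CPM in Fur and 20.3, 10.2, 63.8 and 28.5 CPM in Suffolk.

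PLA2G2C went the other way. It ran from 7.14 through a median of 12.1 to 27.3 CPM in Fur, from 5.12 through 9.75 to 16.7 CPM in NWS and from 0.655 through 3.14 to 11.7 CPM in Suffolk luteal ewes, and was higher by 1.69 in Fur (SE 0.34, adjusted p = 0.000312) and 1.30 in NWS (SE 0.34, adjusted p = 0.0111) on the log2 scale. The ranges overlapped, with 1 Suffolk ewe at 11.7 CPM.

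PLPPR1 was lower than in Suffolk in all 3 breeds, by -1.57 in Belclare (SE 0.38, adjusted p = 0.0142), -1.11 in Fur (SE 0.38, adjusted p = 0.0243) and -1.28 in NWS (SE 0.40, adjusted p = 0.0315). With Fur or NWS fitted with Suffolk alone, or with the replicate number as a block, the last 2 calls were lost. S100G was higher in Fur (1.02, SE 0.40, adjusted p = 0.0453), a call that did not hold under several alternatives, and was 0.80 in NWS (adjusted p = 0.195) and 0.87 in Belclare (adjusted p = 0.144). MDK, FGB and MCOLN3 passed in no breed; MCOLN3 was 2.26 in Belclare on the log2 scale (SE 0.76, adjusted p = 0.0597).

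**Figure D4:**
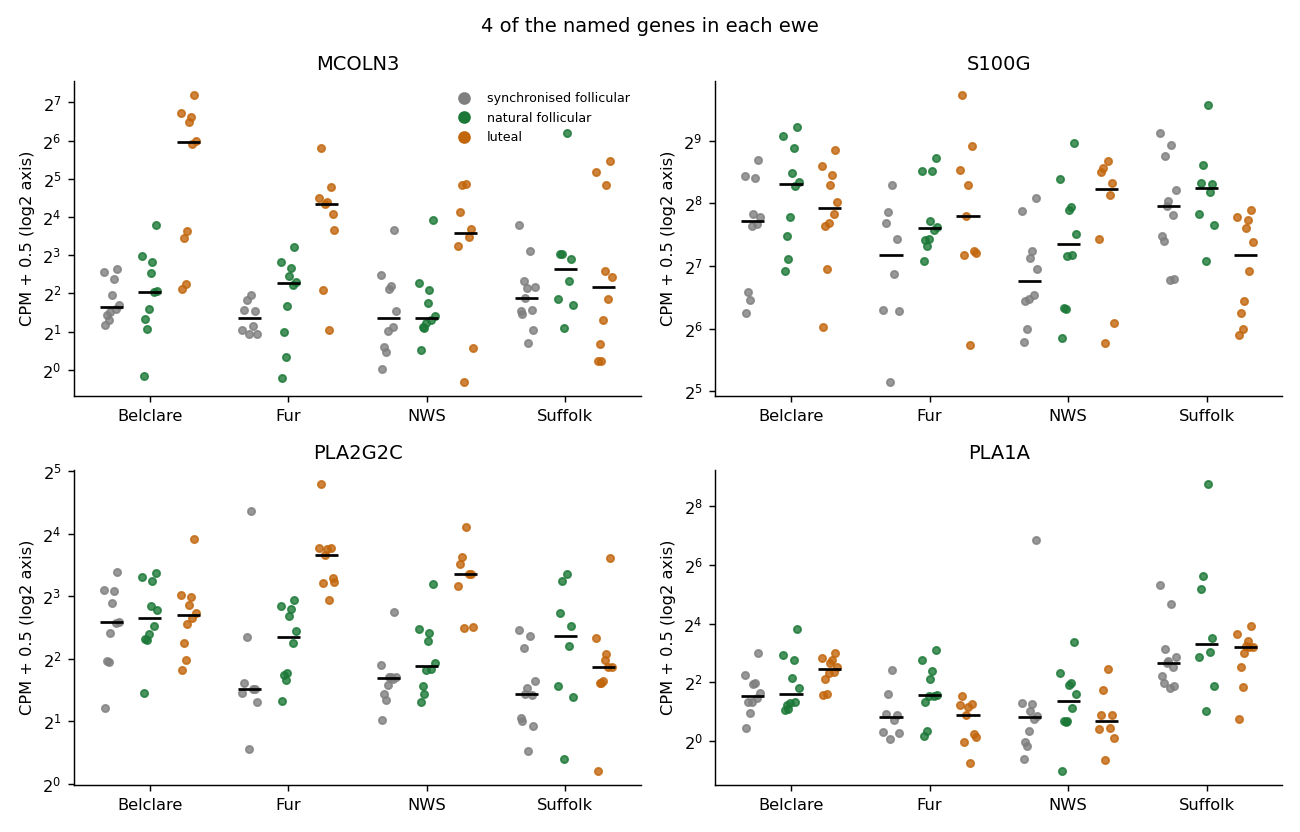
CPM + 0.5 (log2 axis) of MCOLN3, S100G, PLA2G2C and PLA1A in each ewe (points), by breed and group, with group medians (bars). Luteal MCOLN3 reaches 145 CPM in Belclare, luteal PLA2G2C lies highest in Fur and NWS, and PLA1A is highest in Suffolk in each group by its median.

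In Belclare, ENSOARG00000012643 (log2 fold change 2.32, adjusted p = 0.0215), ENSOARG00000011774 (1.25, adjusted p = 0.0276) and ENSOARG00000014054 (1.25, adjusted p = 0.0286) had the smallest p of the genes higher than in Suffolk. Beside PLPPR1, ENSOARG00000016740 (-1.10, adjusted p = 0.0115) and ENSOARG00000019574 (-2.04, adjusted p = 0.0214) had the smallest p of the lower ones, the last at luteal medians of 0.124 CPM in Belclare and 0.67 CPM in Suffolk. The luteal step against the follicular midpoint differed between Belclare and Suffolk for 4 genes of the set: it was larger in Belclare for MCOLN3, ENSOARG00000012643 and ENSOARG00000005183 (0.57% of all genes) and smaller for ENSOARG00000012295 (0.923%), which was named after its values were seen. For Fur and NWS against Suffolk 0 genes of the set passed this edgeR test in either direction (0.0786% of all genes higher and 0.196% lower in Fur, 0.00655% and 0.0393% in NWS), and an unadjusted p below 0.05 was reached by 17 and 12 of them (11.3% and 8.0%), beside 12% and 8.49% of all genes.

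The genes of the set varied together between follicular ewes. With values centred within breed, the median Pearson's r over all pairs of the 150 genes was 0.25 in the 38 natural, 0.26 in the 39 synchronised follicular and 0.14 in the 37 luteal ewes, where all genes gave 0.05, 0.04 and 0.04. Without the 6 libraries that stood apart it was 0.26, 0.29 and 0.05 for the set, so that the luteal value rested on them. The pairs share the depth and composition of each library, and the set was chosen in the same follicular ewes.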

How the data were processed

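RNA of 115 ewe cervices was sequenced, and 114 libraries had agreeing labels. Per the labels and methods, the authors trimmed reads, aligned them to Oar_v3.1 (STAR 2.6.1b) and deposited counts of uniquely mapped read pairs over Ensembl genes (featureCounts, Subread 1.6.3), with no normalization. Here CPM used raw totals, and genes with at least 1 CPM in at least 10 of the 77 follicular libraries were kept. Luteal breed comparisons (37 libraries) and luteal against the follicular midpoint (114) were fitted on the counts of all 15274 genes with edgeR 4.0.16 in R 4.3.3 (TMM, quasi-likelihood test, Benjamini-Hochberg adjustment, adjusted p below 0.05 and fold change above 1.5); DESeq2 1.42.0 was an alternative. Scripts were tested on simulated data. The counts limit precision for weak genes: with 12238996 to 31261671 counts per library, values under 3 counts are near the floor. Members, gene lists and tests were chosen with earlier results of these data known. Genes named are the 11 with a symbol, those of highest score, those nearest the limit, and, per test and direction, the 3 called with least p. Alternatives changed scaling, pseudocount, filter, averaging, tool, threshold, replicate block and libraries; those leaving out Belclare and Suffolk luteal replicates 7 or Fur synchronised follicular replicate 3, or all 6 doubted libraries, were added after seeing the data. The planned search of promoters for motifs was not run, and no sequences are shown. Ewes are separate animals.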

Additional observations from a re-analysis of the deposited data

Results flagged for a closer look

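Of 132 groups of 8 to 10 ewes examined, for the mean of the set and the 11 named genes, 20 held a ewe far from the others by Dixon's criterion, where chance gives about 1 in 20 groups. For the mean of the set, on the log2 scale, these were Belclare luteal replicate 7 (2.64, others 3.14 to 3.63), Fur luteal replicate 6 (3.37, others 3.70 to 3.97) and Suffolk luteal replicate 7 (2.596, others 3.16 to 3.52). Low ewes were found for CELSR2 in Belclare luteal replicate 7 (23.9 CPM), Fur luteal replicate 8 (11.98 CPM) and NWS natural replicate 5 (2.06 CPM), and for MDK in Fur luteal replicate 8 (11.6 CPM). OVOL2 was low in Belclare synchronised follicular replicate 2 (2.98 CPM), Fur luteal replicate 8 (2.54 CPM) and Suffolk luteal replicate 7 (7.51 CPM), and FGB in Suffolk luteal replicate 7 (1.85 CPM). High ewes were NWS synchronised follicular replicate 9 for PLA1A (115 CPM, others up to 1.97) and MDK (176 CPM, others up to 40.9). MCOLN3 was high in NWS natural replicate 6 (14.6 CPM) and Suffolk natural replicate 4 (73.4 CPM, others up to 7.75), and KDM8 in NWS synchronised follicular replicate 7 (24.3 CPM). PLA2G2C was high in Fur synchronised follicular replicate 3 (20.2 CPM), Fur luteal replicate 8 (27.3 CPM) and NWS synchronised follicular replicate 2 (6.22 CPM), and FGB in NWS luteal replicate 2 (23.7 CPM). Fur luteal replicate 8 stood apart for 4 of the named genes. The luteal step of MCOLN3 was larger in Belclare than in Suffolk by 3.16 on the log2 scale (SE 0.76, edgeR, adjusted p = 0.0158).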

How the results depend on the processing

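Membership depended on single libraries and on averaging. Of the 150 genes, 49 were kept with group medians, 40 with the mean of the 4 breed differences as the score and 97 without Belclare synchronised follicular replicate 2. Other scalings, pseudocounts and filters, and leaving out NWS natural replicates 4 and 10 or Fur synchronised follicular replicate 3, kept 111 to 140. Leaving out 1 follicular library at a time kept from 97 to 145, Suffolk natural replicate 6 also moved the count by over 1.5 times, and 9 genes were kept each time. The luteal counts against the midpoint were 66 to 98 higher and 9 to 11 lower over all alternatives. In Belclare the genes higher in luteal ewes than in Suffolk fell from 7 to 4 with the replicate block and to 2 with each breed fitted with Suffolk alone, and the lower ones rose from 4 to 9 with DESeq2 and to 8 without Belclare and Suffolk luteal replicates 7. In NWS the 3 lower genes became 6 with DESeq2, 1 with the replicate block and 5 without those 2 luteal libraries. The cause was not tested. For natural against synchronised ewes the 2 called genes became 6 with no fold change threshold, 26 with DESeq2, 19 with the replicate block, 24 without Belclare synchronised follicular replicate 2 and 9 without Fur synchronised follicular replicate 3, and the 0 called list identifiers became 1 with DESeq2 and 2 without Belclare replicate 2. Ewes of different groups share only a replicate number: same-numbered libraries had a median correlation of deviations of -0.01, and 5 libraries in all were closest to their own number. Among the named genes 8 calls were lost and 9 gained over single alternatives, with no change of direction of a called gene. Values of a few counts per library, as for ENSOARG00000015322 or ENSOARG00000019574, are limited by depth.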

Other observations

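1 library titled as a Suffolk natural follicular ewe but labelled induced and luteal was left out of all comparisons. Its mean level of the 150 genes was 3.55 on the log2 scale, its GREB1 142 CPM, its MCOLN3 2.28 CPM and its S100G 171 CPM, at a depth of 15387419 counts. Suffolk natural ewes had 324 to 793 CPM of GREB1 and Suffolk luteal ewes 26.4 to 261 CPM.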
